A study of Mus musculus with 15 samples.

Results

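Wnt4 and Wnt5a, the secreted Wnt modulators Wif1, Rspo1 and Sostdc1, and Ctnnb1, the gene of β-catenin, were followed over 15 arrays of embryonic mouse mammary buds and ventral skin. The members were every probe set of the array that the authors' deposited lists tie to these 6 genes, by the listed symbol or by the current symbol of the listed Entrez gene. The rule found 8 probe sets of 22690: 1 each for Wnt4, Wif1, Rspo1 and Ctnnb1, and 2 each for Wnt5a and Sostdc1. The lists give Rspo1 as Rspondin and Ctnnb1 as Catnb. All 8 passed the filter on low values, as did 11690 of the 22626 probe sets that are not controls. The lists were drawn by the authors from these same arrays, for buds labelled PTHrP-/- against wild-type (WT) buds and for WT skin against WT buds. Calls and directions of the members in those comparisons are therefore a description and no independent evidence. The same holds in part for every other comparison that uses arrays of those groups. Probe sets of these genes that stand on no list carried no name here.

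Levels are log2 GC-RMA values of Affymetrix MOE430A arrays, on which a probe set of short oligonucleotides reads a transcript. Tissue was dissected on embryonic day 15 from embryos of the CD-1 strain, in 5 groups of 3 arrays. The groups were mammary buds labelled PTHrP-/-, ventral skin labelled K14-PTHrP, ventral skin labelled K14WT, ventral skin of WT embryos and mammary buds of WT embryos. PTHrP, parathyroid hormone-related protein, is encoded by Pthlh, and PTHrP-/- embryos carry a disrupted Pthlh in every cell. In K14-PTHrP embryos a transgene makes PTHrP in basal keratinocytes from the promoter of keratin 14. K14WT skin is wild-type skin that the labels set beside the transgenic skin. The labels name no founder line and no batch. Tissue of like genotype was pooled for RNA, and since separate pools per array are not stated, p-values measure the spread between these RNA preparations, which may be technical. Within whole pieces of tissue, fewer cells of a type and less RNA per cell cannot be told apart.

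Wnt proteins are secreted ligands that bind Frizzled receptors. In the canonical branch this stabilises β-catenin, which enters the nucleus and acts with TCF and LEF factors, while Wnt5a is best known for signalling without β-catenin. Wif1 binds Wnt ligands outside the cell and blocks them, Rspo1 strengthens Wnt signals through Lgr receptors, and Sostdc1 (also called ectodin or Wise) is a secreted modulator of Wnt and BMP signals. Wnt signalling is needed to form the mammary placode, and PTHrP from the bud epithelium acts on its receptor in the surrounding mesenchyme, which then turns into the dense mammary mesenchyme.

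The Pthlh probe set did not check the labels, because no source used here places it relative to the disruption or the transgene. It read 6.40 ± 0.37 in buds labelled PTHrP-/- and 5.43 ± 0.51 in WT buds (SD, n = 3 each), and every direction below rests on the labels. Of 10 markers of bud epithelium, 8 were measured, and their summed linear signal ran from 1937 to 2780 in buds labelled PTHrP-/-, from 1393 to 1696 in skin labelled K14-PTHrP, from 1385 to 2075 in K14WT skin, from 1627 to 2398 in WT skin and from 3175 to 3544 in WT buds. Of 12 mesenchymal markers, 7 were measured, and their sums were 20377 to 24035, 19301 to 29539, 30482 to 32992, 24837 to 32567 and 19323 to 22017 in the same order of groups. Further lists had 3 of 8 basal keratinocyte, 3 of 8 epidermal differentiation, 9 of 12 skeletal muscle, 3 of 6 endothelial and 3 of 7 leukocyte markers measured, and their sums stand beside the results they move with. A linear sum follows its brightest markers, and single markers of a list can run otherwise. The 3' minus 5' difference of the Gapdh control probe sets, a sign of RNA quality, was 1.41, 1.29 and 0.67 log2 units in buds labelled PTHrP-/-, 0.30, 0.44 and 1.19 in skin labelled K14-PTHrP, 0.46 to 0.78 in K14WT skin, 0.66 to 0.91 in WT skin and 0.72 to 1.03 in WT buds. Replicate 3 of the skin labelled K14-PTHrP was thus apart from its own group, and 2 of the arrays of buds labelled PTHrP-/- were higher still. On 120 probe sets, none of them a member, all 3 WT skin arrays lay more than 1 log2 unit from the other 12 arrays, and calls that were lost without those probe sets are named.

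Promoter windows of 250 bases before the start were available for 4 of the 6 genes in the RefSeq table of build GRCm38.p6. The windows of Wif1 and Rspo1 are shown because these modulators differed between the groups in opposite directions. They were searched on both strands for the TCF/LEF core CAAAG, which reads CTTTG on the other strand, and for the cAMP response half-site TGACG, which reads CGTCA there, since PTHrP acts through cAMP. Both windows lie on the plus strand, Wif1 at chr10:121033754-121034003 and Rspo1 at chr4:124986180-124986429, and capitals mark a match.
Wif1: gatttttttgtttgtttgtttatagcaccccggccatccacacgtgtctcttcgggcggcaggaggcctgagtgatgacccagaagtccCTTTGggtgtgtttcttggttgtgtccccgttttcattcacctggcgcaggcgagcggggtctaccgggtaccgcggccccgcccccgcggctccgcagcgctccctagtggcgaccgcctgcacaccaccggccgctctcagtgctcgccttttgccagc
Rspo1: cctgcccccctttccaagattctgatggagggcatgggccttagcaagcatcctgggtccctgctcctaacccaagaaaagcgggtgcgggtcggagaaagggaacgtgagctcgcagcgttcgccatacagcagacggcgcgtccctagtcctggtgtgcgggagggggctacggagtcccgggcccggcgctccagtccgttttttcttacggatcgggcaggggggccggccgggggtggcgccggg
The Wif1 window held 1 TCF/LEF core and no cAMP half-site, and the Rspo1 window held neither. The core stood in 48.6% and the half-site in 17.8% of all 32851 windows of the same length, so a match or its lack is a description of these letters alone.

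Wnt4, a canonical ligand made in embryonic skin and bud epithelium, read 7.37, 7.53 and 7.58 in buds labelled PTHrP-/-, 6.79, 7.20 and 7.55 in skin labelled K14-PTHrP, 6.99, 7.64 and 7.37 in K14WT skin, 7.67, 7.91 and 7.98 in WT skin, and 8.0, 7.86 and 7.94 in WT buds. Every array of WT skin and WT buds lay above every array of the other 3 groups, by as little as 7.67 against 7.64. WT skin and WT buds overlapped, as did skin labelled K14-PTHrP and K14WT skin. The group means spanned 0.75 log2 units, the second smallest span among the 8 probe sets.

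Wnt5a was read by 2 probe sets that did not follow each other. Probe set 1436791_at read 6.91, 6.70 and 6.78 in buds labelled PTHrP-/-, 7.42, 7.13 and 6.65 in skin labelled K14-PTHrP, 7.06, 5.83 and 6.67 in K14WT skin, 6.98, 6.52 and 6.70 in WT skin, and 5.94, 6.48 and 6.65 in WT buds. Only the bud groups were free of overlap among the pairs compared below, by 6.70 against 6.65. Probe set 1448818_at read 5.55, 5.89 and 5.53 in buds labelled PTHrP-/-, 5.60, 4.94 and 6.34 in skin labelled K14-PTHrP, 5.07, 5.21 and 4.86 in K14WT skin, 6.19, 6.10 and 5.96 in WT skin, and 5.50, 4.97 and 5.76 in WT buds. Here WT skin lay above both K14WT skin and WT buds on every array, and the bud groups overlapped. Over the 15 arrays the pair correlated at r = 0.04, and at r = -0.32 once group means were taken off.

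Wif1, the extracellular Wnt inhibitor, read 6.04, 5.98 and 6.15 in buds labelled PTHrP-/-, 5.58, 5.75 and 5.74 in skin labelled K14-PTHrP, 6.91, 6.11 and 6.55 in K14WT skin, 6.83, 6.37 and 6.85 in WT skin, and 5.64, 5.29 and 5.42 in WT buds. Both wild-type skin sets were high and WT buds low, and buds labelled PTHrP-/- lay above WT buds on every array. Skin labelled K14-PTHrP lay below every array of both wild-type skin sets and overlapped WT buds.

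Rspo1, the R-spondin that amplifies Wnt signals, read 5.41, 5.25 and 5.27 in buds labelled PTHrP-/-, 6.83, 5.25 and 7.17 in skin labelled K14-PTHrP, 4.72, 4.0 and 4.45 in K14WT skin, 4.72, 4.87 and 5.17 in WT skin, and 5.78, 5.95 and 5.90 in WT buds. Skin labelled K14-PTHrP was above both wild-type skin sets on every array, but its replicate 2 lay below all WT buds and its other arrays above them. Buds labelled PTHrP-/- lay between WT buds and the wild-type skin sets without overlap. The group means spanned 2.03 log2 units, more than for any other of the 8 probe sets.

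Sostdc1, the Wnt and BMP modulator, was read by 2 probe sets that ran together, at r = 0.89 over 15 arrays and 0.62 with group means taken off. Probe set 1449340_at read 8.66, 8.54 and 8.51 in buds labelled PTHrP-/-, 9.37, 9.38 and 8.81 in skin labelled K14-PTHrP, 8.31, 8.28 and 8.48 in K14WT skin, 8.29, 8.11 and 8.17 in WT skin, and 8.98, 8.75 and 8.73 in WT buds. Probe set 1460250_at read 6.12, 6.27 and 6.2 in buds labelled PTHrP-/-, 7.34, 7.35 and 6.95 in skin labelled K14-PTHrP, 5.35, 5.63 and 6.08 in K14WT skin, 6.12, 5.92 and 6.14 in WT skin, and 6.80, 6.67 and 6.87 in WT buds. On both, skin labelled K14-PTHrP exceeded every array of the wild-type skin sets, WT buds exceeded every array of buds labelled PTHrP-/- and of the wild-type skin sets, and replicate 3 was the lowest of the K14-PTHrP arrays. In the authors' deposited table, 1460250_at was called absent on all 3 arrays of buds labelled PTHrP-/- and of WT skin, and in WT buds present on 1, marginal on 1 and absent on 1. Detection calls of the K14 groups were not analysed here, and K14WT skin read lower than the groups called absent, so the sizes of all differences of this probe set are not exact.

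Ctnnb1, which encodes the β-catenin of Wnt signalling and of cell junctions, read 7.24, 7.47 and 7.62 in buds labelled PTHrP-/-, 8.67, 8.66 and 5.72 in skin labelled K14-PTHrP, 8.83, 8.31 and 8.39 in K14WT skin, 7.09, 8.17 and 6.85 in WT skin, and 7.64, 8.01 and 8.08 in WT buds. Replicate 3 of the skin labelled K14-PTHrP, whose Gapdh control difference was 1.19, was the lowest of all 15, and the part of RNA quality in this value was not tested. The pooled SD within groups was 0.84 log2 units, against 0.17 to 0.50 for the other 7 probe sets.

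**Figure D1:**
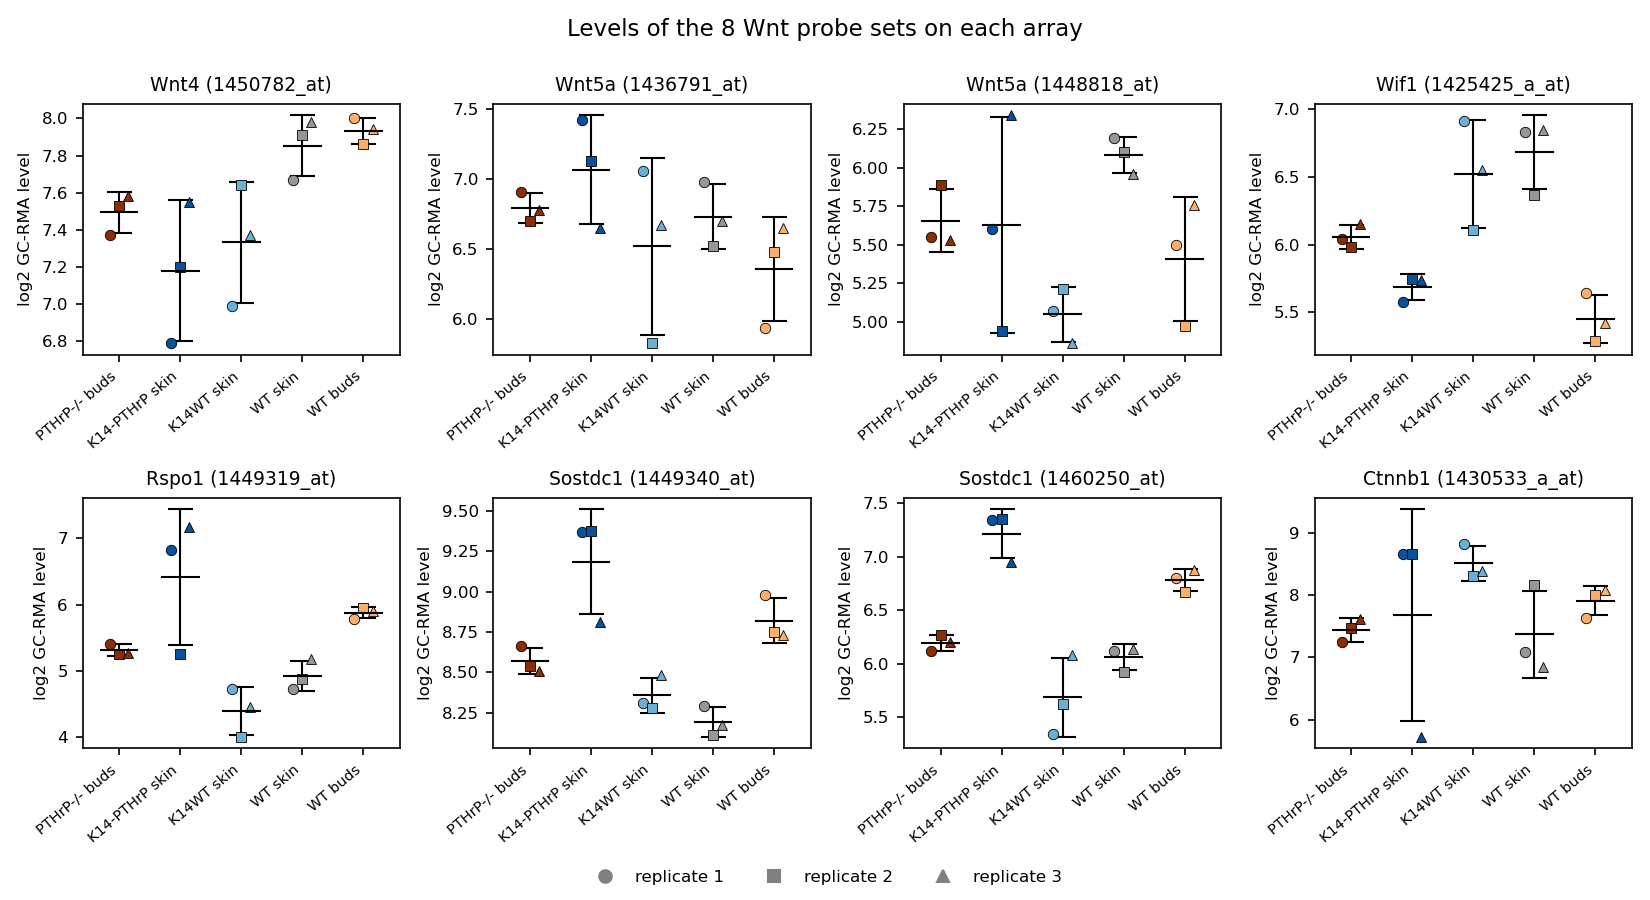
Log2 GC-RMA level (vertical axis, its range differs between panels) of the 8 probe sets on each array, by group on the horizontal axis. Symbols are arrays, horizontal lines group means and bars 1 SD (n = 3). Rspo1 and both Sostdc1 probe sets are highest on average in K14-PTHrP skin, Wif1 is lowest in WT buds, and Ctnnb1 has 1 K14-PTHrP array at 5.72.

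Ranked by group mean, Rspo1 and Sostdc1 1460250_at had the same order: skin labelled K14-PTHrP, WT buds, buds labelled PTHrP-/-, WT skin, K14WT skin. Sostdc1 1449340_at differed only in the place of the last 2. Wif1 ran from WT skin through K14WT skin, buds labelled PTHrP-/- and skin labelled K14-PTHrP to WT buds. No neighbours in the order of any of the 8 probe sets differed at an adjusted p under 0.05 in limma, the lowest adjusted p being 0.141 for Sostdc1 1460250_at in skin labelled K14-PTHrP against WT buds.

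The comparison of skin labelled K14-PTHrP with K14WT skin asked what extra PTHrP in the basal epidermis does to the transcripts, and it took no part in drawing up the lists. Rspo1 and Sostdc1 rose in skin labelled K14-PTHrP. Rspo1 averaged 6.42 ± 1.03 in skin labelled K14-PTHrP and 4.39 ± 0.36 in K14WT skin (SD, n = 3 each), a log2 difference of 2.03 ± 0.36 (SE), with a limma adjusted p of 0.0216. The K14WT levels of 4.72, 4.0 and 4.45 lay near the array medians of 3.94, 4.05 and 4.04, replicate 2 below its own, so the size of the rise is not exact. Sostdc1 1460250_at averaged 7.22 ± 0.23 and 5.69 ± 0.37, a rise of 1.53 ± 0.16 (adjusted p = 0.000344). Its other probe set, 1449340_at, averaged 9.19 ± 0.32 and 8.35 ± 0.11, a rise of 0.83 ± 0.14 or 1.78-fold (adjusted p = 0.0136). Thus 3 of 8 member probe sets passed, all higher, while 0.513% of all 11690 probe sets passed as higher and 0.710% in either direction. The members come from the authors' lists, so all probe sets are no like yardstick. Fitted on the K14 groups alone, none of the members passed, as given below.

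Wif1 averaged 5.69 ± 0.09 in skin labelled K14-PTHrP and 6.52 ± 0.40 in K14WT skin. Its difference of -0.83 ± 0.18 did not pass (adjusted p = 0.0643), although the arrays did not overlap. It passed in 4 of 16 alternatives, among them quantile normalization (0.0328), array weights (0.00159) and leaving out K14WT replicate 2 (0.0132). The ligands did not pass: the differences were -0.15 ± 0.19 for Wnt4, 0.55 ± 0.28 for Wnt5a 1436791_at and 0.58 ± 0.28 for Wnt5a 1448818_at (lowest adjusted p = 0.457). Among the alternatives Wnt5a 1436791_at passed only with array weights (0.0493). Ctnnb1 was at -0.83 ± 0.61 (adjusted p = 0.573), and at 0.15 without replicate 3 of the skin labelled K14-PTHrP. In all, 4 of 8 probe sets had no overlap, against 11.3% of all probe sets, and the members' median difference was 0.56, against -0.01 over all.

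Sostdc1 1460250_at passed with any array left out (adjusted p at most 0.00283), while 1449340_at did not pass without K14WT replicate 2 (0.0654) or K14-PTHrP replicate 1 (0.0570), and Rspo1 did not without K14WT replicate 2 (0.105) or 3 (0.0831) or K14-PTHrP replicate 1 (0.0820) or 3 (0.0563). Rspo1 also did not pass without a filter on low values (0.0636) or without the WT skin group in the fit (0.0567), and a filter on all 15 arrays removed it. Fitted on the 2 K14 groups alone, where the spread is wider, none of the 8 passed, against 0.0599% of all probe sets. The adjusted p was 0.206 for Sostdc1 1460250_at, 0.551 for 1449340_at and 0.699 for Rspo1. In that fit 4 of the 8 had an unadjusted p under 0.05, as did 583 of all 11690 probe sets. The summed bud epithelium markers overlapped between the groups (1393 to 1696 in skin labelled K14-PTHrP and 1385 to 2075 in K14WT skin). Within this sum Sim2 (log2 level 4.24 against 2.36), Tbx3 (5.17 against 4.17) and Gata3 (5.63 against 5.02) averaged higher in skin labelled K14-PTHrP. Pthlh (3.54 against 4.16), Krt8 (7.37 against 7.84), Krt18 (6.94 against 7.17), Krt19 (10.07 against 10.23) and Elf5 (4.88 against 6.41) averaged lower. Sim2 lay below the array medians in K14WT skin. The mesenchymal sum was lower without overlap (19301 to 29539 against 30482 to 32992 in K14WT skin) and the leukocyte sum higher without overlap (579 to 660 against 401 to 522). In the mesenchymal sum Col1a1 (log2 level 11.29 against 11.51), Col1a2 (12.54 against 13.02), Col3a1 (13.85 against 14.06) and Lum (10.41 against 11.37) averaged lower. Pth1r (8.23 against 7.97), Pdgfrb (8.18 against 7.96) and Prrx1 (8.12 against 8.1) averaged higher. The part of these cell types in the results was not tested.

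**Figure D2:**
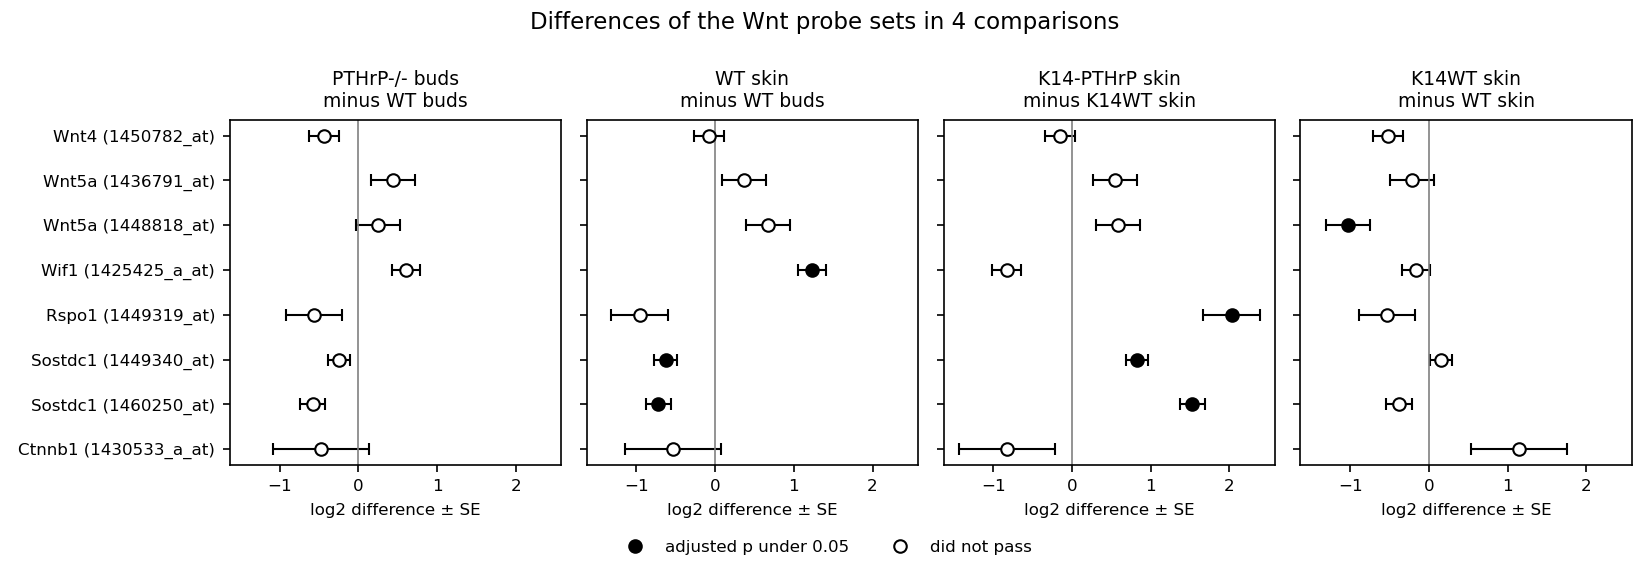
Log2 difference (horizontal axis, with bars of 1 SE from the fit over 15 arrays) of each probe set (rows) in 4 comparisons, each the first named group minus the second. Filled points passed at an adjusted p under 0.05: none for PTHrP-/- buds minus WT buds, Wif1 and both Sostdc1 probe sets for WT skin minus WT buds, Rspo1 and both Sostdc1 probe sets for K14-PTHrP skin minus K14WT skin, and Wnt5a 1448818_at for K14WT skin minus WT skin.

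Buds labelled PTHrP-/- were set against WT buds to see which transcripts differ when PTHrP is missing. None of the 8 probe sets passed in limma, where 0.0342% of all probe sets passed. An unadjusted p under 0.05 was found for 3 of the 8 and for 1647 of all 11690 probe sets. Among the modulators, the differences were 0.61 ± 0.18 for Wif1 (adjusted p = 0.247), -0.56 ± 0.36 for Rspo1 (0.465), -0.58 ± 0.16 for Sostdc1 1460250_at (0.228) and -0.25 ± 0.14 for Sostdc1 1449340_at (0.415). Among the ligands they were -0.44 ± 0.19 for Wnt4 (0.334), 0.44 ± 0.28 for Wnt5a 1436791_at (0.469) and 0.25 ± 0.28 for Wnt5a 1448818_at (0.681). Ctnnb1 was at -0.47 ± 0.61 (0.718).

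The bud arrays did not overlap for 7 of 8 probe sets, of which buds labelled PTHrP-/- were higher on 2 and lower on 5, against 32.2% of all probe sets. The authors' deposited table lists 6 of them, with signed folds of 1.52 for Wif1, 1.33 for Wnt5a 1436791_at, -1.35 for Wnt4, -1.39 for Ctnnb1, -1.48 for Rspo1 and -1.5 for Sostdc1 1460250_at, so nothing is read from this count. Fitted on the bud groups alone, whose spread is narrower, Rspo1 and Sostdc1 1460250_at passed as lower (adjusted p = 0.0453 each), as did 0.547% of all probe sets. The bud epithelium sum was lower without overlap in buds labelled PTHrP-/- (1937 to 2780 against 3175 to 3544 in WT buds), as were the sums of basal keratinocyte (5395 to 5765 against 6624 to 7552), epidermal differentiation (14886 to 16002 against 18290 to 18541) and skeletal muscle markers (6596 to 7972 against 9530 to 10444). In the bud epithelium sum Pthlh alone averaged higher in buds labelled PTHrP-/- (log2 level 6.4 against 5.43). The part of these cell types in the Rspo1 and Sostdc1 levels was not tested.

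WT skin was set against WT buds to see what parts the bud from the skin around it. Wif1 rose 2.35-fold in WT skin, with 6.68 ± 0.27 there and 5.45 ± 0.18 in WT buds, a difference of 1.23 ± 0.18 (adjusted p = 0.00109). Sostdc1 was lower in WT skin on both probe sets, with a difference of -0.63 ± 0.14 on 1449340_at (adjusted p = 0.0360) and -0.72 ± 0.16 on 1460250_at (adjusted p = 0.0413). These 3 of 8 passed, against 1.83% of all probe sets, in a contrast from which the authors drew 2 of the lists. Wif1 passed with any array left out (adjusted p at most 0.0105) and without the 120 probe sets set apart in WT skin (0.00867). Neither Sostdc1 probe set passed without those 120 (0.0951 and 0.105, where 0.259% of all probe sets passed) or with any of the 6 arrays left out (0.0657 to 0.178), nor without a filter, with the filter on all 15 arrays or with quantile normalization (0.0555 to 0.0919).

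Rspo1 was at -0.96 ± 0.36 in WT skin against WT buds (adjusted p = 0.339), with no overlap, and passed only on the 2 groups alone (0.00764) and with array weights. Wnt5a was at 0.37 ± 0.28 on 1436791_at and 0.67 ± 0.28 on 1448818_at, Wnt4 at -0.08 ± 0.19 and Ctnnb1 at -0.54 ± 0.61 (lowest adjusted p = 0.413). K14WT skin gave a further look at skin against WT buds, sharing the WT bud arrays: Wif1 was higher there (1.07 ± 0.18, adjusted p = 0.00595), and Rspo1 (-1.48 ± 0.36, 0.0231), Sostdc1 1449340_at (-0.47 ± 0.14, 0.0480) and Sostdc1 1460250_at (-1.09 ± 0.16, 0.00387) were lower. These 4 of 8 compare with 11.5% of all probe sets, though the WT bud arrays helped to select the members. The bud epithelium sum was lower without overlap in both skin sets than in WT buds, and the mesenchymal sum higher without overlap (30482 to 32992 in K14WT skin and 24837 to 32567 in WT skin, against 19323 to 22017 in WT buds). Basal keratinocyte sums (3750 to 5076 and 5469 to 6472, against 6624 to 7552) and endothelial sums (319 to 567 and 889 to 1060, against 1366 to 1530) were lower without overlap in both. In the endothelial sum only Ramp2 averaged lower (log2 level 7.43 in K14WT skin and 9.47 in WT skin, against 10.33 in WT buds). Cdh5 (6.03 and 6.01, against 5.15) and Esam (7.35 and 7.47, against 6.67) averaged higher in both. The leukocyte sum was higher without overlap in WT skin alone (566 to 644 against 339 to 447) and the skeletal muscle sum in K14WT skin alone (12491 to 16363 against 9530 to 10444). Single markers ran against their sums in K14WT skin. Elf5 averaged higher there than in WT buds (log2 level 6.41 against 5.97), and Pth1r (7.97 against 8.44) and Des (7.25 against 7.49) averaged lower. The part of these cell types in the differences was not tested.

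K14WT skin and WT skin are both labelled as wild-type ventral skin. Of the 8 probe sets, only Wnt5a 1448818_at passed between them, with 5.05 ± 0.18 in K14WT skin and 6.08 ± 0.11 in WT skin, a difference of -1.03 ± 0.28 (adjusted p = 0.0439), while 7.37% of all probe sets passed. It did not pass without the 120 probe sets set apart in WT skin (0.0516, where 5.38% of all probe sets passed) or when replicate 1, 2 or 3 of WT skin or of K14WT skin was left out (0.0608 to 0.139), nor without a filter (0.0979) or with quantile normalization (0.0528). In K14WT skin the skeletal muscle sum was higher without overlap (12491 to 16363 against 6897 to 11287 in WT skin), though Des within it averaged lower (log2 level 7.25 against 7.5). The sums of endothelial (319 to 567 against 889 to 1060), leukocyte (401 to 522 against 566 to 644) and basal keratinocyte markers (3750 to 5076 against 5469 to 6472) were lower without overlap. The endothelial difference lay in Ramp2 (log2 level 7.43 against 9.47), while Cdh5 (6.03 against 6.01) and Esam (7.35 against 7.47) were nearly level. The part of these cell types was not tested. The authors list Wnt5a 1448818_at as higher in WT skin than in WT buds, so the WT skin arrays helped to select it. The other Wnt5a probe set was at -0.21 ± 0.28 (0.661). Wnt4 was at -0.52 ± 0.19 (0.102), Ctnnb1 at 1.14 ± 0.61 (0.256), Rspo1 at -0.53 ± 0.36 (0.371), Wif1 at -0.16 ± 0.18 (0.587), and Sostdc1 at 0.16 ± 0.14 and -0.38 ± 0.16 (0.472 and 0.167).

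Skin labelled K14-PTHrP was also set against WT skin, a comparison that shares the K14-PTHrP arrays with the one against K14WT skin. Rspo1 (1.5 ± 0.36, adjusted p = 0.0403), Sostdc1 1449340_at (1.0 ± 0.14, 0.000588) and Sostdc1 1460250_at (1.15 ± 0.16, 0.000603) were higher and Wif1 (-0.99 ± 0.18, 0.00617) lower, 4 of 8 against 3.21% of all probe sets, though Rspo1 did not pass without the 120 probe sets (0.0617, where 1.43% of all probe sets passed). Set against WT buds, only Wnt4 passed in skin labelled K14-PTHrP (-0.75 ± 0.19, 0.0405), 1 of 8 against 4.29%. There 4 members had an unadjusted p under 0.05, as did 2559 of all 11690 probe sets. In K14WT skin against WT buds Wnt4 was at -0.6 ± 0.19 (0.054). Rspo1 (0.54 ± 0.36, 0.426), Wif1 (0.24 ± 0.18, 0.499) and Sostdc1 (0.37 ± 0.14 and 0.44 ± 0.16, 0.150 and 0.141) did not pass in skin labelled K14-PTHrP, though Sostdc1 1460250_at was higher without overlap. Buds labelled PTHrP-/- were lower than skin labelled K14-PTHrP in Sostdc1, with differences of -0.61 ± 0.14 (0.0452) and -1.02 ± 0.16 (0.0055), 2 of 8 against 1.83%. No member passed between buds labelled PTHrP-/- and WT skin or K14WT skin, where 1.90% and 1.59% of all probe sets passed. An unadjusted p under 0.05 was found there for 2 and 3 members, and for 1314 and 2182 of all 11690 probe sets.

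Loss of PTHrP in buds and its gain in skin were set side by side, since these comparisons share no arrays. No member passed with loss, and with gain Rspo1 and both Sostdc1 probe sets passed, so the signs below are a description. The estimates had opposite signs for 4 probe sets: -0.56 with loss and 2.03 with gain for Rspo1, -0.58 and 1.53 for Sostdc1 1460250_at, -0.25 and 0.83 for Sostdc1 1449340_at, and 0.61 and -0.83 for Wif1. Wnt4, both Wnt5a probe sets and Ctnnb1 had the same sign in both. Opposite signs in 4 of 8 compare with 58.9% of all 11690 probe sets, so the share was no higher among the members. A test of the sum of the loss and gain differences, which is 0 when they mirror each other, passed in limma for none of the 8 and for 20 of all probe sets. The members' lowest adjusted p was 0.283, and 5 of the 8 had an unadjusted p under 0.05. All probe sets were not counted at that unadjusted threshold, so nothing is read from the 5.

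**Figure D3:**
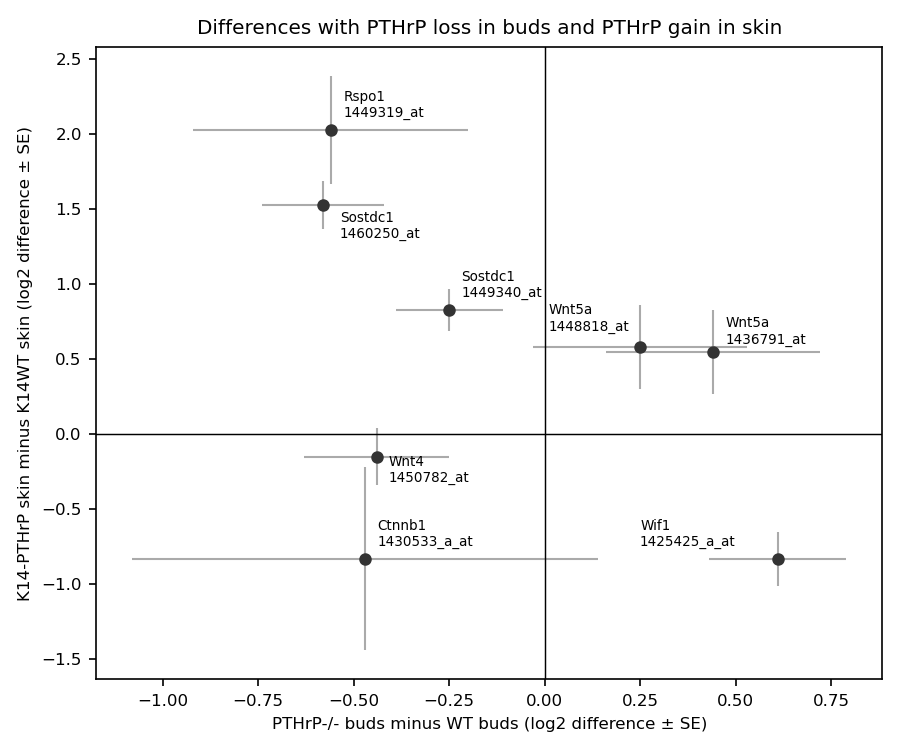
Log2 difference of PTHrP-/- buds minus WT buds (horizontal axis) and of K14-PTHrP skin minus K14WT skin (vertical axis) for the 8 probe sets, with bars of 1 SE from the fit. Rspo1 and both Sostdc1 probe sets lie upper left (lower with loss, higher with gain) and Wif1 lower right, while the other 4 have the same sign on both axes.

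**Figure D4:**
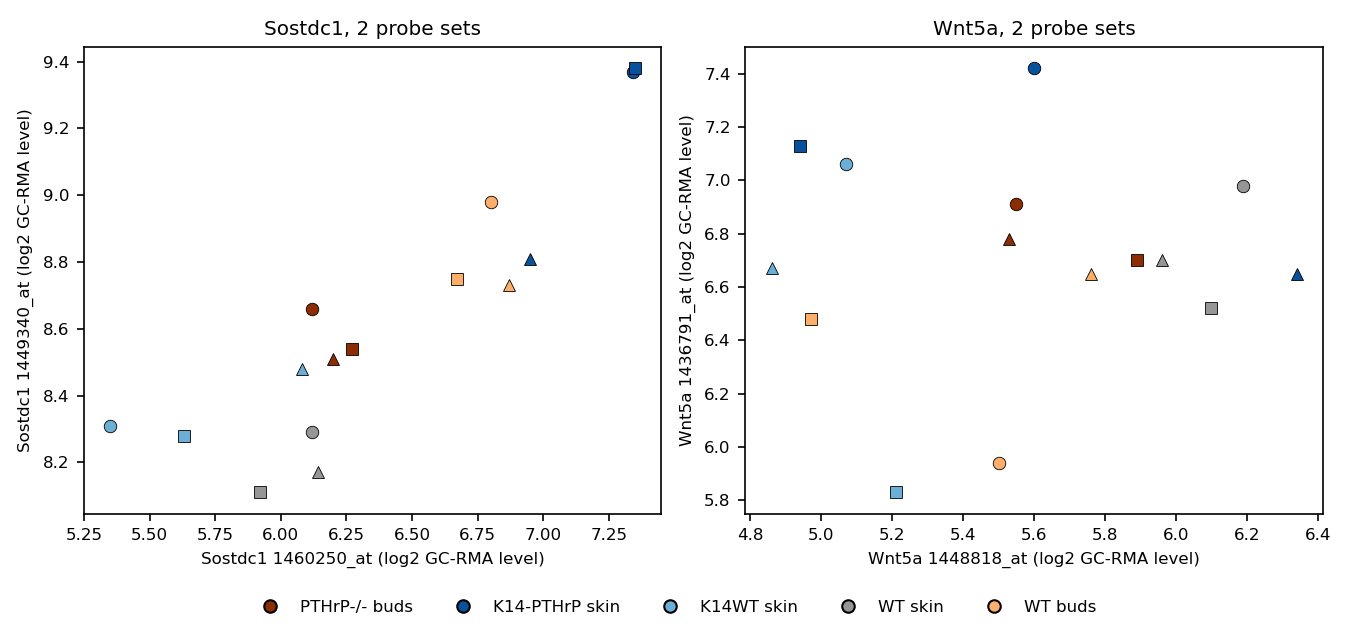
Log2 GC-RMA levels of the 2 probe sets of Sostdc1 (left) and of Wnt5a (right) against each other, 1 point per array with circles, squares and triangles for replicates 1, 2 and 3. The Sostdc1 probe sets are high and low on much the same arrays (r = 0.89), and those of Wnt5a are not (r = 0.04).

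Of a list of 139 Wnt pathway genes, 27 had a name here and 23 were kept, 17 of them not members. Names come only from the authors' lists, so the 17 were picked for differences between the bud groups or between WT skin and WT buds. Their counts and medians where those arrays are used are a description, and all probe sets are no like yardstick. In skin labelled K14-PTHrP against K14WT skin none of the 17 passed in limma, and their median difference was 0.31, against -0.01 over all probe sets. An unadjusted p under 0.05 was found for 6 of the 17 and for 1382 of all 11690 probe sets. The smallest p belonged to Tbx3, a transcription factor of the mammary placode (1.0 ± 0.29, adjusted p = 0.214), Jun (0.36 ± 0.13, 0.293), the phosphatase subunit Ppp2r1a (0.31 ± 0.11, 0.317) and Ccn4, a matricellular protein also called WISP1 (-0.66 ± 0.26, 0.368). Tbx3 averaged 4.17 in K14WT skin and 3.91 in WT skin, near the array medians of 3.86 to 4.05, so its differences are not exact. In buds labelled PTHrP-/- against WT buds none passed either, with a median of -0.39 against -0.03 over all. An unadjusted p under 0.05 was found there for 5 of the 17 and for 1647 of all 11690 probe sets. There the casein kinases Csnk1e (-0.58 ± 0.17, 0.236) and Csnk1d (-0.47 ± 0.14, 0.247), Jun (-0.40 ± 0.13, 0.248) and Ppp2r1a (-0.33 ± 0.11, 0.256) came first.

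In WT skin against WT buds, Ccn4 rose 2.58-fold in WT skin (1.37 ± 0.26, adjusted p = 0.0116), the only 1 of the 17 to pass. It did not pass without the 120 probe sets (0.052), without WT buds replicate 1 (0.0658) or 2 (0.0805) or without WT skin replicate 3 (0.0529). Tbx3 was at -1.0 ± 0.29 (0.160), the kinase Map3k7 at 0.73 ± 0.23 (0.209) and the corepressor Tle3 at -0.67 ± 0.27 (0.376), and the median was 0.04 against 0.01. Between the wild-type skin sets, 5 of the 17 were lower in K14WT skin and none higher, where 5.98% of all probe sets were lower, with a median of -0.47 against -0.05. They were the chromatin remodeller Smarca4 (-2.30 ± 0.37, 0.00241), the Wnt receptor Ryk (-0.78 ± 0.14, 0.00527), Ppp2r1a (-0.46 ± 0.11, 0.0265), Csnk1e (-0.67 ± 0.17, 0.0319) and the cyclin Ccnd2 (-0.82 ± 0.23, 0.0489). Without the 120 probe sets 4 of the 17 were lower, and Ccnd2 did not pass (0.0565). Smarca4 and Ryk passed under each of 15 alternatives (adjusted p at most 0.0158 and 0.0316). Csnk1e, Ppp2r1a and Ccnd2 did not pass with quantile normalization (0.0589, 0.111 and 0.0743) or without K14WT replicate 3 (0.111, 0.0658 and 0.171), WT skin replicate 2 (0.125, 0.0978 and 0.14) or WT skin replicate 3 (0.0824, 0.0553 and 0.129). K14WT replicate 2 also ended the calls of Csnk1e (0.0888) and Ccnd2 (0.0796), WT skin replicate 1 those of Ppp2r1a (0.0687) and Ccnd2 (0.0741), and K14WT replicate 1 that of Ppp2r1a (0.0577). In all, 7, 7 and 9 of the 15 alternatives ended the calls of Csnk1e, Ppp2r1a and Ccnd2. Ccnd2 lies outside the rule for naming and was named after its values were seen.

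Among 1892 other named genes, each member's profile over the 15 arrays was most like the following, by Pearson r, as a description in which points share arrays and groups. Wif1 was nearest to Egfl6 (r = 0.931), Ccn4 (0.873) and Peli1 (0.858). Egfl6, a matrix protein, averaged 6.77 in buds labelled PTHrP-/-, 6.39 in skin labelled K14-PTHrP, 7.69 in K14WT skin, 7.40 in WT skin and 5.99 in WT buds. Rspo1 was nearest to Hmga2 (0.915), 6330403K07Rik (0.878) and Tbx3 (0.874). Hmga2, a chromatin protein of embryonic cells, averaged 6.41, 7.24, 5.65, 6.45 and 7.18 in the same order of groups.

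Sostdc1 1449340_at was nearest to the matrix proteoglycan Vcan (0.866), the neuropeptide precursor Tac1 (0.844) and the transcription factor Sim2 (0.820). Sim2 averaged 4.24 in skin labelled K14-PTHrP and 3.82 in WT buds, and 2.28 to 2.37 in the other groups. Array medians ran from 3.86 to 4.05, so Sim2 read near them at most and its differences are not exact. Wnt4 was nearest to Eif6 (0.929), H2aj (0.921) and Plxnb2 (0.912), and Wnt5a 1436791_at to Tmed7 (0.910), Eid1 (0.860) and Ppp1cb (0.854). Ctnnb1 was nearest to Bzw1 (0.947), Acat1 (0.937) and Snu13 (0.926), and Bzw1 had an SD of 1.5 in skin labelled K14-PTHrP, where its arrays ran from 7.22 to 9.88.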

How the data were processed

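RNA of 15 samples was read on 1-colour arrays. Per the submitters' processing notes the authors used GCRMA, MAS5 and affy, and the deposited value table holds log2 levels. The authors' deposited lists give mean signals as linear intensity, a signed fold change and a false discovery rate, which are used here as the authors' scores. Their listed means equalled the linearized table means of the members after rounding. No genome build is named, so coordinates come from the RefSeq promoter table alone. Of 2416 named probe sets, 2323 were matched by Entrez gene in the RefSeq gene table.

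Array medians ran from 3.86 to 4.05 and no further normalization was applied. After removal of 64 controls, the filter asked for a level above the array's median on 3 or more arrays. All 15 arrays entered a model of 5 group means (lmFit and eBayes of limma 3.58.1, R 4.3.3), with two-sided p-values adjusted by Benjamini-Hochberg over the 11690 kept probe sets within each comparison, at a threshold of 0.05. An SE therefore draws on all groups. The median SD was 0.11 in buds labelled PTHrP-/-, 0.20 in skin labelled K14-PTHrP, 0.18 in K14WT skin, 0.12 in WT skin and 0.13 in WT buds. The number of arrays limits the precision. The fit was tested on simulated data. Named pathway genes are up to 4 with the smallest adjusted p in each of 4 comparisons, each gene read by its brightest named probe set, and the 3 named genes most like each member. The members, lists and rules were chosen with earlier results of these data known. Alternatives varied the filter, the normalization, the groups fitted, the prior, array weights, a replicate block and single arrays.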

Additional observations from a re-analysis of the deposited data

Results flagged for a closer look

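Wnt5a 1448818_at differed between the wild-type skin sets when both were set against WT buds. The difference was -0.36 ± 0.28 (SE) in K14WT skin and 0.67 ± 0.28 in WT skin, each against WT buds, and the difference between these was -1.03 ± 0.28 (limma adjusted p = 0.0439), with all 3 K14WT skin arrays below all 3 WT skin arrays. The adjusted p ran from 0.000223 to 0.139 over 15 alternatives, 5 of which passed. WT buds drop out of the difference, so it is the comparison of the wild-type skin sets given above and no further result. The WT skin arrays helped to select this probe set, and the other Wnt5a probe set was at -0.21 ± 0.28 (adjusted p = 0.661).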

How the results depend on the processing

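In buds labelled PTHrP-/- against WT buds, 2 of 8 probe sets passed on the 2 groups alone and 2 with array weights, against 0. Of all 11690 probe sets, 33 passed as higher and 64 as lower on the 2 groups alone, and 54 and 180 with array weights. In WT skin against WT buds 1 passed, in place of 3, without a filter, with the filter on all 15 arrays, with quantile normalization, without the 120 set-apart probe sets (chosen after seeing the data) and without any array (1 to 1). Without a filter, 114 of all 22626 probe sets passed as higher and 104 as lower. The filter on all 15 arrays gave 50 and 36 of 10500, and quantile normalization 115 and 96 of 11690. Without the set-apart probe sets 0.259% passed. With an array left out, 79 to 149 of 11690 passed as higher and 74 to 100 as lower. In skin labelled K14-PTHrP against K14WT skin, 0 passed on the 2 groups alone, 5 with array weights and 1 to 3 with an array left out, against 3. Of all 11690 probe sets, 6 passed as higher and 1 as lower on the 2 groups alone, and 778 and 574 with array weights. With an array left out, 33 to 144 passed as higher and 14 to 66 as lower. In K14WT skin against WT skin, 0 passed without a filter, with quantile normalization and without the set-apart probe sets, 3 with array weights and 0 to 1 with an array left out, against 1. Array weights called 1283 of all 11690 probe sets as higher and 2751 as lower, so nothing is read from the 3. Without a filter 143 and 439 of 22626 passed, and with quantile normalization 251 and 436 of 11690. Without the set-apart probe sets 5.38% passed. With an array left out, 107 to 250 passed as higher and 268 to 1028 as lower. With the replicate number as a replicate block, 0, 2, 4 and 0 passed in these comparisons. Of all 11690 probe sets, 2, 122, 56 and 164 then passed as higher and 1, 99, 17 and 719 as lower. The numbers did not pair the arrays (correlations of same-numbered deviations -0.14 to 0.31), and the block is no part of the results above.

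Differences that changed sign had not passed: Wnt4 in WT skin against WT buds (0.02 without WT skin replicate 1) and in skin labelled K14-PTHrP against K14WT skin (0.00 without K14WT replicate 2, 0.05 without K14-PTHrP replicate 1, -0.34 to 0.05 over single arrays), Ctnnb1 in that K14 comparison (0.01 with array weights, 0.15 without K14-PTHrP replicate 3, -1.32 to 0.15), and Wnt5a 1436791_at (0.14, range -0.48 to 0.14) and Wif1 (0.05, range -0.36 to 0.05) in K14WT skin against WT skin without K14WT replicate 2. The cause was not tested. With 3 arrays per group, differences of small size could not be told from the spread.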

Other observations

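Within groups, Wnt4 and Wnt5a 1436791_at ran opposite to each other: with group means taken off, r was -0.85 over the 15 arrays, and -0.70 with them left in. This was the most extreme of all member pairs and was picked after the values were seen. The other Wnt5a probe set did not run opposite to Wnt4 (r = 0.33 with group means taken off, 0.35 with them left in). Other pairs showed smaller within-group correlations, the next being -0.64 for Wnt5a 1448818_at and Ctnnb1. Points share an array's hybridisation and RNA, so these are descriptions. Rspo1 and Sostdc1 1460250_at, which had the same order of group means and an r of 0.77 over all arrays, correlated at -0.36 within groups.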
